A study of Mus musculus with 4 samples.

Results

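In GFP-sorted smooth muscle lineage cells of the mouse ascending aorta and arch, Tnnt2, Pln, Corin and Psd were counted mainly in a minority of cells, and the cells with the highest combined level of these 4 genes are described here. The score of a cell was the sum of its Tnnt2, Pln, Corin and Psd UMIs (unique molecular identifiers, each counted as 1 captured RNA molecule) per 10000 of its UMIs, and the members were the 10% of cells with the highest score in each library. They numbered 1305 of the 13049 cells kept, with 416 in KO 1, 341 in KO 2, 232 in WT 1 and 316 in WT 2. They were set against the 50% of cells with the lowest score in the same library, called low-score cells, of which there were 2081, 1707, 1158 and 1578 in that order of libraries.

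Both genotypes carried Myh11-CreERT2, a tamoxifen-inducible Cre recombinase driven by a smooth muscle myosin gene, and the mT/mG reporter, which turns from membrane tdTomato to membrane GFP when Cre acts. KO mice also carried Tgfbr1f/f and Tgfbr2f/f, floxed alleles of both TGF-beta receptor genes, and WT mice did not. All were C57BL/6J mice taken at 12 weeks of age, and GFP+ cells were sorted from the tissue, so cells that had not recombined the reporter were selected against. Tamoxifen was given for 5 days, at 1 mg a day from 4 weeks of age or at 2 mg a day from 11 weeks, and the labels do not say which course each library had. There were 2 libraries for each genotype. Nothing in the labels says how many mice a library holds, so the spread between libraries may be in part technical.

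Troponin T, encoded by Tnnt2, anchors the troponin complex to tropomyosin on the thin filament of heart muscle. Phospholamban, encoded by Pln, restrains the calcium pump that refills the sarcoplasmic reticulum, in heart and in smooth muscle. Corin is a membrane protease that cuts pro-atrial natriuretic peptide, and Psd encodes an exchange factor for the small GTPase ARF6. Smooth muscle of the ascending aorta and arch comes from cardiac neural crest and from second heart field progenitors, whose lineages are marked in embryos by different transcription factors.

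The promoters of the 4 score genes are shown because these genes define the score. They lie on 4 chromosomes. Each window runs 5′ to 3′ on the gene's own strand, from 250 bases before the start to 50 after it, in RefSeq's table for GRCm38.p6. Capitals mark GATAA on either strand (TTATC is its reverse complement), the core of the site that GATA factors bind.
Tnnt2 (chr1:135836084-135836383, + strand): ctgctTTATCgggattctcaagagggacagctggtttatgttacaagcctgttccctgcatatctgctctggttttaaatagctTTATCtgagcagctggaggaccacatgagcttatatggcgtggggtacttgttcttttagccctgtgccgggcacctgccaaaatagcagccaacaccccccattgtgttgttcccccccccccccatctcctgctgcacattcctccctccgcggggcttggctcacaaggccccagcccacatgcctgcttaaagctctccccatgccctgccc
Pln (chr10:53337436-53337735, + strand): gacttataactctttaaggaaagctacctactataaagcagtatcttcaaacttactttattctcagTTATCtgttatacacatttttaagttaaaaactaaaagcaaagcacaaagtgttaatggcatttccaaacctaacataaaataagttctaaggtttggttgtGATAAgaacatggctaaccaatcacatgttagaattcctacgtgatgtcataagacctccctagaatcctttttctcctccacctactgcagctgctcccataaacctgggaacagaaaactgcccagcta
Corin (chr5:72504491-72504790, - strand): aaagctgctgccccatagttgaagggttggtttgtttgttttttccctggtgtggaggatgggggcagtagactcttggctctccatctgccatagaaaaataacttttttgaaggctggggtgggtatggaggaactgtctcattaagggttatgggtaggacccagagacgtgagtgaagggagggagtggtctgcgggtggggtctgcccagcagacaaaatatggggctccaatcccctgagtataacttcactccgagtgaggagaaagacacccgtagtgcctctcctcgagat
Psd (chr19:46327107-46327406, - strand): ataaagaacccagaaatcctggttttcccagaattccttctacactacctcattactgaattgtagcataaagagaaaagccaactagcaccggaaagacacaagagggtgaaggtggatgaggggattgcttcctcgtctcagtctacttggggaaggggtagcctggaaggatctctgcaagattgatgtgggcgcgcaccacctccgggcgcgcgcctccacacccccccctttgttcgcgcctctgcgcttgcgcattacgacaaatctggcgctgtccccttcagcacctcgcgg
GATAA was found 2 times in the Tnnt2 window, starting 245 and 166 bases before the start, 2 times in the Pln window and in neither of the other two windows. It was also found 1 time in the window of Des, and 25.4% of 32817 promoter windows hold it. The CArG box, the serum response factor motif of many smooth muscle genes, matched none of these 5 windows and 1.63% of all windows. TATAAA was found 1 time, in Pln, and lies in 13.6% of all windows. CANNTG, searched on both strands like the others, was found 5 times in Tnnt2, 2 times in Pln, 1 time in Corin and never in Psd, and lies in 72.3% of all windows. CAGAC, the core of SMAD binding sites, was found 3 times in Corin and in none of the other 3 score genes, against 49.6% of all windows. A match describes the letters of a window and not a bound site.

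The score separated cells unevenly within each library. The lowest member and the highest cell outside scored 13.03 and 13.02 in KO 1, 10.18 and 10.18 in KO 2, 5.21 and 5.19 in WT 1, and 5.38 and 5.36 in WT 2. Members had median scores of 24.5 and 19.4 in KO 1 and KO 2 and of 8.84 and 9.91 in WT 1 and WT 2. Both KO libraries thus had a higher cut and a higher median than either WT library. The highest score was 126 in KO 1, 149.8 in KO 2, 46.6 in WT 1 and 66.4 in WT 2. A score of 0 was held by 38.8% and 45.1% of KO cells and by 48.0% and 50.3% of WT cells, so that the low-score cells of WT 2 were all cells with no UMI of any score gene. Members held 67.9% and 70.8% of all score UMIs of the KO libraries and 61.0% and 66.8% of those of the WT libraries. At the WT 2 cut of 5.38, 20.04% and 16.2% of KO cells would have been members, against 9.59% and 10.01% of WT cells.

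**Figure D1:**
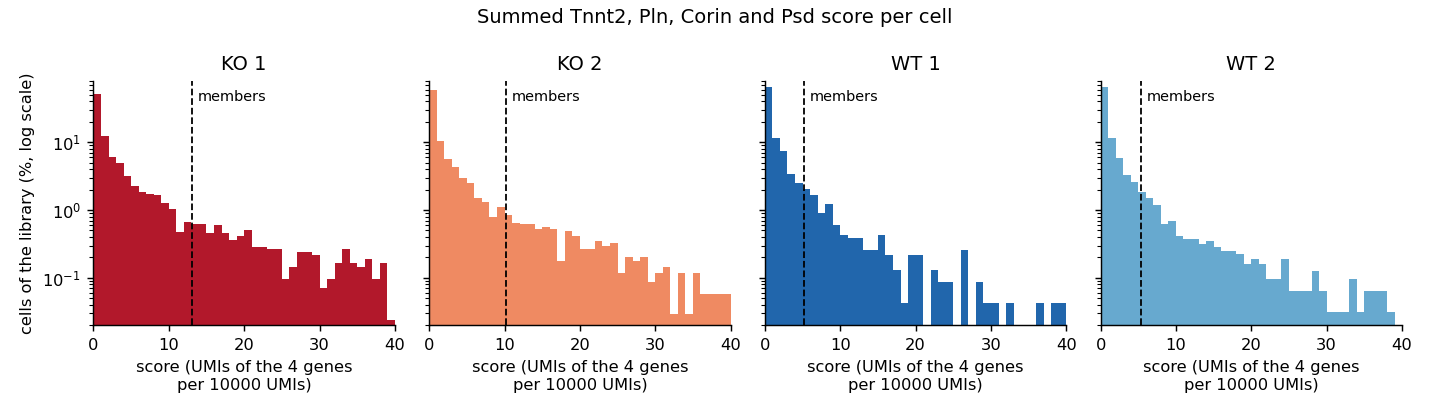
Histograms of the score (Tnnt2, Pln, Corin and Psd UMIs per 10000 UMIs, x axis) give the percentage of a library's cells in bins of 1 on a log y axis, for KO 1, KO 2, WT 1 and WT 2, with a dashed line at the lowest member. The line lies at 13.03 and 10.18 in the KO libraries and at 5.21 and 5.38 in the WT libraries with no gap beside it, and cells above a score of 40, 2.57% and 1.67% of KO and 0.216% and 0.380% of WT cells, are beyond the axis.

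Tnnt2 made up most of the score. Its share of the members' score UMIs was 91.8% and 90.9% in KO 1 and KO 2 and 83.9% and 86.8% in WT 1 and WT 2, and it was counted in 99.5% and 98.8% of KO members and 95.3% and 98.4% of WT members. The gene (chr1:135836354-135852260, + strand, GRCm38) stood at 3221 and 2559 CPM (counts per 1000000 UMIs) in KO members, against 9.32 and 3.62 CPM in KO low-score cells. In WT members it stood at 1002 and 1229 CPM, against 1.21 and 0 CPM in WT low-score cells. Members of both KO libraries lay above members of both WT libraries. Pln (chr10:53337667-53345987, + strand) stood at 134 and 133 CPM in KO members and at 106 and 100.5 CPM in WT members, and was counted in 51.0% and 51.9% of KO members and 38.4% and 42.1% of WT members. Psd (chr19:46312087-46327156, - strand) stood at 80.7 and 103.8 CPM in KO members and 70.4 and 60.6 CPM in WT members. Corin (chr5:72300025-72504473, - strand) was the least even, at 70.7 and 20.7 CPM in KO members and 16.7 and 25.4 CPM in WT members, so that KO 2 lay among the WT libraries and KO 1 above them. At least 2 of the 4 genes were counted in 78.1% and 76.8% of KO members and in 62.9% and 67.4% of WT members. At least 3 were counted in 41.1% and 37.0% of KO members and 19.0% and 22.2% of WT members, and all 4 in 10.8% and 4.11% of KO members and 2.16% and 5.06% of WT members. All of these values were used to choose the members and are given with no test.

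Each score gene was also read in cells chosen by the other 3, as a description with no test, because the 4 genes were picked together on these data. For each gene the comparison cells followed the rule for low-score cells, but with cells ranked by the other 3 genes. They are thus not the low-score cells defined above. The top 10% of cells by Pln, Corin and Psd held 9.37 and 9.998 times as much Tnnt2 as these comparison cells in KO 1 and KO 2. In WT 1 and WT 2 they held 4.46 and 7.45 times as much. The top 10% by these 3 genes included 45.9% and 46.0% of the KO members and 43.5% and 44.3% of the WT members. The ratio for Corin was 68.3 and 57.0 in the KO libraries and 15.9 and 64.5 in the WT libraries, and that for Psd was 10.3 and 17.2 in KO and 9.94 and 10.6 in WT. Pln was the least tied to the others, at 4.22 and 3.68 in KO and 1.62 and 3.91 in WT. Across the 4162 and 3414 cells of KO 1 and KO 2, Tnnt2 and Psd correlated at Pearson's r of 0.373 and 0.449 on log-scaled values. Across the 2316 and 3157 cells of WT 1 and WT 2, r was 0.328 and 0.340. The pairing of Tnnt2 and Psd had the highest r of the 6 pairs in every library but KO 1, where Tnnt2 and Corin had 0.397. The lowest r was 0.172 in KO 1, 0.0807 in KO 2 (both Corin and Psd), 0.0400 in WT 1 and 0.0761 in WT 2 (both Pln and Psd). These cells share a library and its depth, so the coefficients are descriptions, and the lower ones are weak.

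Des and Lum were named together with the score genes when these cells were first picked out, and they also carry no test. Des (chr1:75360329-75368579, + strand) encodes desmin, the muscle intermediate filament. It stood at 565 and 677 CPM in KO members against 87.2 and 52.2 CPM in KO low-score cells, and at 479 and 290 CPM in WT members against 53.8 and 54.1 CPM in WT low-score cells. It was counted in 52.2% and 52.5% of KO members and 50.4% and 46.2% of WT members, against 18.8% and 15.7% of KO and 14.9% and 12.2% of WT low-score cells. Every library had more Des in members, and the members of KO and WT differed by less than either differed from its low-score cells. Lum (chr10:97565128-97572703, + strand), the gene of the proteoglycan lumican, was rare. Its UMIs fell in 28 and 31 KO members and in 4 and 4 WT members, and 1 cell held 50% of its UMIs in WT 1 members and 37.5% in WT 2 members. A Lum UMI was counted in 6.73% and 9.09% of KO members, against 1.92% and 1.76% of KO low-score cells. In WT it was counted in 1.72% and 1.27% of members, against 0.518% and 0.507% of low-score cells. Lum therefore describes few members of either genotype.

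Members held slightly more UMIs than low-score cells of their library, and their doublet scores were no higher. The median was 14841 and 15515 UMIs in KO members against 13760 and 14235 in KO low-score cells, and 14771.5 and 15651.5 in WT members against 14513 and 14999 in WT low-score cells. Thinned to 3000 UMIs, a median of 1398.5 and 1393 genes was detected in KO members against 1428 and 1449 in their low-score cells, and 1407 and 1403.5 in WT members against 1439 and 1446. The median doublet score was 0.0863 and 0.0865 in KO members against 0.102 and 0.0865 in KO low-score cells, and 0.0850 and 0.0884 in WT members against 0.115 and 0.107 in WT low-score cells. Any 2 libraries shared 3 to 6 cell barcodes of the 14696 in the files. UMIs of tdTomato, the reporter before recombination, stood at 13.8 and 4.07 CPM before scaling factors in KO members against 10.4 and 7.12 CPM in KO low-score cells. No tdTomato UMI was counted in 232 and 316 WT members, which allows up to 1.29% and 0.949% of cells with one.

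Measured against cell type markers, the members carried the smooth muscle markers, while several genes that define heart muscle cells were at or near 0. Of 11 smooth muscle markers tested, Des not counted, 5 were higher in members and 1 lower by the test described below. Without Des they summed to 68157 and 69205 CPM in KO members against 64608 and 57534 CPM in KO low-score cells, and to 57437 and 61010.2 CPM in WT members against 54669 and 55442 CPM in WT low-score cells. The 18 cardiomyocyte markers, Tnnt2 and Pln not among them, summed to 336 and 197 CPM in KO members against 236 and 238 CPM in KO low-score cells, and to 206 and 184 CPM in WT members against 184 and 180 CPM in WT low-score cells. The order of members and low-score cells thus differed between the KO libraries, and 1 of 9 markers tested, Myh6, was called. Of the cardiomyocyte UMIs in members, 2020 were of Tcap, 1035 of Ryr2 and 692 of Actc1, while Myl3, Myl7 and Nppb were at 0 and Myl2 and Nppa had 2 each. Fibroblast markers, Lum not counted, summed to 1009 and 1193 CPM in KO members against 1374 and 1418 CPM in KO low-score cells, and to 1549 and 1364 CPM in WT members against 1809.8 and 2003 CPM in WT low-score cells. Of the fibroblast UMIs in members, 7703 were of Gsn, 7017 of Col1a1 and 4233 of Mfap5, so these genes weigh most in the sum. The single markers went both ways, with 3 of 10 tested higher and 5 lower. Dcn, Serpinf1 and Col14a1 stood above low-score cells in every library. Summed pericyte markers were lower in members, at 547 and 568 CPM in KO members against 717 and 971 CPM and at 773 and 698 CPM in WT members against 962 and 1185 CPM in their low-score cells. Endothelial markers summed to 41.2 and 44.4 CPM in KO members against 78.4 and 69.2 CPM in KO low-score cells, and to 71.3 and 61.3 CPM in WT members against 76.4 and 77.4 CPM in WT low-score cells, with 1 of 8 tested higher and 4 lower. Cdh5, Tek, Tie1, Emcn and Cldn5 had no UMI in 1305 members, which allows up to 0.230% of cells with one, while Flt1 had 384, Erg 295 and Pecam1 163 UMIs. Flt1 stood above low-score cells in all 4 libraries, at 15.3 and 18.03 CPM in KO members against 14.3 and 10.97 CPM in KO low-score cells, and 31.3 and 19.2 CPM in WT members against 18.6 and 15.7 CPM in WT low-score cells. The members are a range of a continuous score and not a cell type, and 1.56% and 1.9% of KO cells and 2.2% and 2.12% of WT cells scored within 10% of the cut.

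Members also lay near each other when the score genes were not used. In a space of principal components built without them, 38.2% and 36.1% of the 15 nearest neighbours of a KO member, and 26.6% and 35.2% of those of a WT member, were members. For low-score cells the shares were 2.16% and 2.94% in KO and 4.31% and 3.41% in WT, where the rule makes 10% of all cells members. Over all cells they were 7.87% and 8.79% in KO and 8.01% and 8.59% in WT. The score genes were picked on these data and many other genes vary with the score. The closeness is thus a description with no test. No cluster held members alone. The cluster richest in them consisted of members for 43.9% and 45.9% in KO 1 and KO 2, and for 55.6% and 19.6% in WT 1 and WT 2, where the WT 1 cluster had 18 cells.

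Across all other genes, members differed from low-score cells in 1608 of 12892 genes tested (12.5%), of which 844 were higher (6.55%) and 764 lower (5.93%). The test was edgeR's quasi-likelihood test on UMIs summed per library and class, with the library as a block and Benjamini-Hochberg adjustment over all genes, and a gene was called below an adjusted p of 0.05. Values are CPM with edgeR's scaling factors, library 1 before library 2, and log2 fold changes are members over low-score cells, mean of KO and WT, unless said otherwise. Cells were ranked by the score, so the test asks which other genes vary with it, and a called gene is no evidence of a separate population. At least 2-fold differences were seen for 158 higher (1.23%) and 199 lower genes (1.54%). The direction was the same in all 4 libraries for 776 of the 844 higher genes (91.9%) and 686 of the 764 lower genes (89.8%), against 28.4% of all genes tested. Without WT 2 the fit called 1003 genes. A gene low in 1 class may have passed the expression filter through the other class alone.

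Transcription factors of the heart and of the arch region split into a higher and a lower set. Of 41 tested in a list of 47, 14 were higher (34.1%) and 11 were lower in members (26.8%), with a list median log2 fold change of -0.04. For this and the gene lists below that set members against low-score cells, 6.55% of all genes tested were higher and 5.93% lower. Gata4, Tcf21, Isl1, Nkx2-5, Irx5 and Meis2 were among the higher ones and Prrx2, Msx2, Tfap2b and Sox9 among the lower ones.

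Gata4 (chr14:63198922-63271692, - strand), a zinc finger factor needed for heart formation, stood at 38.8 and 10.4 CPM in KO members against 1.08 and 0.506 CPM in KO low-score cells, and 16.7 and 31.4 CPM in WT members against 1.68 and 1.12 CPM in WT low-score cells. All 4 member values lay above all 4 low-score values, with a log2 fold change of 4.54 ± 0.20 (SE, adjusted p = 7.14e-10). A Gata4 UMI was counted in 34.1% and 14.1% of KO members against 1.35% and 0.762% of KO low-score cells, and in 17.7% and 27.2% of WT members against 2.16% and 1.52% of WT low-score cells. Tcf21, a factor of epicardial and coronary mural progenitors, stood at 9.07 and 10.4 CPM in KO members against 0.439 and 0.583 CPM in KO low-score cells, and 6.56 and 5.36 CPM in WT members against 0.925 and 0.0832 CPM in WT low-score cells. The classes did not overlap for this gene either, and its log2 fold change was 4.01 ± 0.33 (SE, adjusted p = 6.33e-07). Meis2, a homeobox gene of outflow tract and neural crest, stood at 166 and 181 CPM in KO members against 89.9 and 82.97 CPM in KO low-score cells, and 133 and 129 CPM in WT members against 70.4 and 67 CPM in WT low-score cells. It was higher in members of each library, with a log2 fold change of 0.97 ± 0.05 (SE, adjusted p = 2.64e-09).

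Isl1, which marks second heart field progenitors, stood at 4.37 and 12.7 CPM in KO members against 2.6 and 1.71 CPM in KO low-score cells, and 6.86 and 4.33 CPM in WT members against 1.33 and 0.79 CPM in WT low-score cells, a log2 fold change of 2.14 ± 0.31 (SE, adjusted p = 0.000198), and the classes did not overlap. Nkx2-5, a homeobox gene of heart progenitors, was at few UMIs, 3.7 and 3.04 CPM in KO members against 0.338 and 0.0389 CPM in KO low-score cells, and 3.58 and 0.619 CPM in WT members against 0.0578 and 0.208 CPM in WT low-score cells, with a log2 fold change of 3.82 ± 0.57 (SE, adjusted p = 0.000248). Its lowest member value, 0.619 CPM in WT 2, was still above every low-score value. Among the other higher factors, the log2 fold change was 3.95 for Gata5, 2.71 for Irx5, 2.46 for Tbx5, 2.45 for Hand1, 0.62 for Twist1, 0.40 for Tbx20, 0.39 for Tbx18 and 0.26 for Meis1. Gata5 and Tbx5 rested on few UMIs, with at most 1.49 CPM of Gata5 in members of any library and 0.206 CPM of Tbx5 in WT 2 members. Tbx20 did not pass in WT alone, at 0.30 ± 0.17 (SE, adjusted p = 0.467). Gata6, which is expressed throughout vascular smooth muscle, had a log2 fold change of -0.01 ± 0.04 (SE, adjusted p = 0.902) and did not pass.

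Hand2, a basic helix-loop-helix factor of the outflow tract, was higher by a small step, at 183 and 216 CPM in KO members against 154 and 125 CPM in KO low-score cells, and 138 and 121 CPM in WT members against 109.6 and 96.6 CPM in WT low-score cells, with a log2 fold change of 0.43 ± 0.07 (SE, adjusted p = 0.000343). Hand2os1, the long noncoding RNA that overlaps it on the opposite strand (chr8:57281117-57324233, - strand, against chr8:57320983-57324633, + strand, for Hand2), differed more. It stood at 139 and 153 CPM in KO members against 36.9 and 22.9 CPM in KO low-score cells, and 112 and 108 CPM in WT members against 27.1 and 26.3 CPM in WT low-score cells. No low-score value reached a member value, and its log2 fold change was 2.17 ± 0.09 (SE, adjusted p = 7.14e-10). The 2 genes overlap on opposite strands, and the strand setting of the counting is not given in the sources used here, so their reads cannot be told apart where they overlap.

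**Figure D2:**
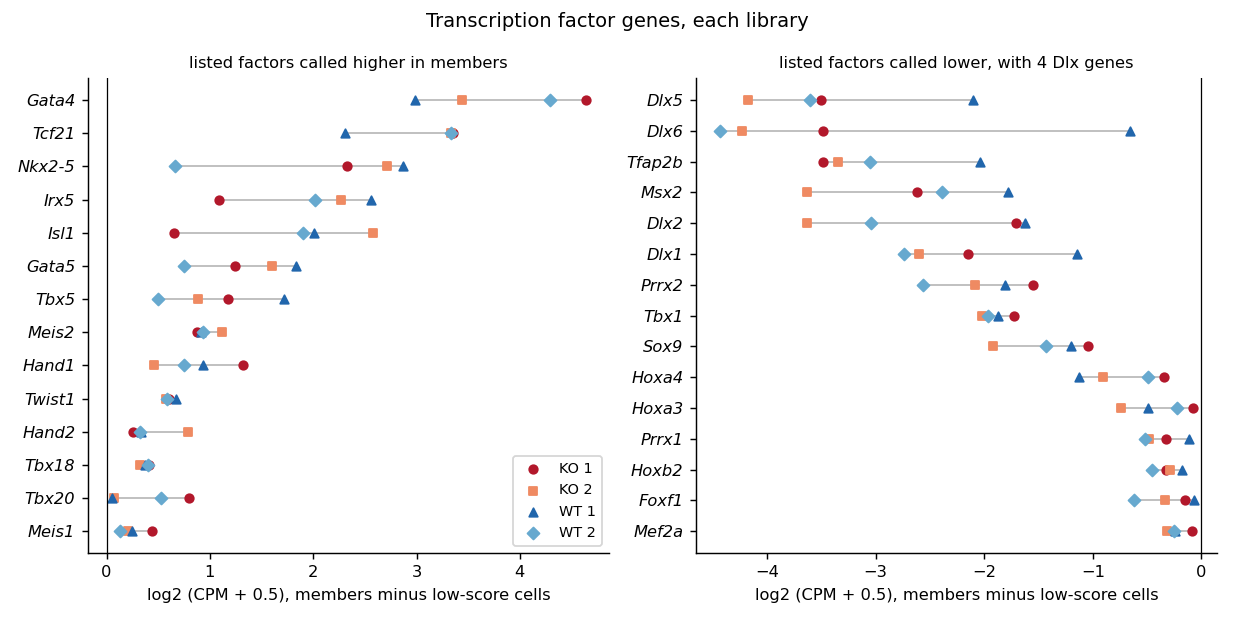
The x axis gives log2(CPM + 0.5) in members minus that in low-score cells for the listed transcription factors called higher (left) or lower (right, with 4 Dlx genes), with 1 point per library, KO in red and orange and WT in blues. All points lie right of 0 on the left and left of 0 on the right, Gata4 reaches farthest right, and Dlx5 and Dlx6 reach farthest left.

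The lower factors included homeobox and neural crest genes, although Meis2, a homeobox gene of neural crest too, was among the higher ones. The lineage that the members came from was not tested. Prrx2, a paired-related homeobox gene of embryonic mesenchyme, stood at 18.8 and 23.3 CPM in KO members against 56.3 and 101 CPM in KO low-score cells, and 5.96 and 6.81 CPM in WT members against 22.1 and 42.8 CPM in WT low-score cells. Its members lay below low-score cells of their own library in all 4 cases, with a log2 fold change of -2.13 ± 0.11 (SE, adjusted p = 3.18e-09). Msx2 stood at 0.504 and 0.949 CPM in KO members against 5.67 and 17.5 CPM in KO low-score cells, and 1.19 and 2.06 CPM in WT members against 5.32 and 12.9 CPM in WT low-score cells, a log2 fold change of -3.23 ± 0.21 (SE, adjusted p = 5.41e-08). Sox9, the master factor of cartilage, stood at 10.9 and 8.92 CPM in KO members against 23.1 and 35.2 CPM in KO low-score cells, and 7.75 and 7.63 CPM in WT members against 18.5 and 21.5 CPM in WT low-score cells, a log2 fold change of -1.45 ± 0.13 (SE, adjusted p = 1.88e-06). Both genes were lower in members of every library without overlap between the classes. Tfap2b, a neural crest factor that acts in the ductus arteriosus, had 0 and 0.759 CPM in KO members against 5.1 and 12.3 CPM in KO low-score cells, and 0 and 0.206 CPM in WT members against 1.56 and 5.36 CPM in WT low-score cells. Tbx1, a factor of the pharyngeal arches, had 0.336 and 0.190 CPM in KO members and none in WT members, against 2.26 and 2.29 CPM in KO and 1.33 and 1.46 CPM in WT low-score cells. Hoxa4, Hoxa3, Hoxb2, Foxf1, Prrx1 and Mef2a were lower by log2 fold changes between -0.70 for Hoxa4 and -0.22 for Mef2a.

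The Dlx homeobox genes, which pattern the pharyngeal arches, were counted after their values had been seen. All 4 of the Dlx genes tested were lower in members. Dlx5 stood at 0.504 and 0.949 CPM in KO members against 10.9 and 25.7 CPM in KO low-score cells, and 1.79 and 1.03 CPM in WT members against 9.36 and 18.1 CPM in WT low-score cells, a log2 fold change of -4.02 ± 0.22 (SE, adjusted p = 5.28e-09). The log2 fold change was -3.64 for Dlx6, -4.41 for Dlx1 and -4.42 for Dlx2. Members thus had at most 1.79 CPM of Dlx5 where low-score cells had at least 9.36 CPM.

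Along the range of the score, the transcription factors followed different courses. In 5 bins from low-score cells over the 50th to 75th, 75th to 90th and 90th to 95th percentile to the top 5%, Gata4 stood at 1.104, 2.82, 7.26, 26.4 and 49.5 CPM in KO 1, without scaling factors. KO 2 had 0.529, 1.73, 4.02, 9.06 and 11.3 CPM of Gata4 in these bins. In WT 1 Gata4 stood at 1.70, 2.89, 5.78, 11.5 and 21.7 CPM, and in WT 2 at 1.14, 0.888, 6.24, 17.3 and 43.8 CPM. The value increased from bin to bin in all 4 libraries except at the second bin of WT 2, and its largest fold step in KO 1 was at the border of the top 10%. Tcf21 and Meis2 increased from bin to bin in every library. Tbx20 was level up to the 90th percentile in KO 1, at 26.5, 26.3 and 26.5 CPM, and stood at 41.9 and 46.9 CPM above it. Isl1 in WT 2 stood at 0.803, 0.888, 1.22, 5.11 and 3.25 CPM. Myh11, the smooth muscle myosin gene, stood at 7100 and 8004 CPM in the top 5% of KO 1 and KO 2 against 7160 and 6738 CPM in their low-score cells, and at 5654 and 5410 CPM in the top 5% of WT 1 and WT 2 against 5123 and 5179 CPM in their low-score cells. It was thus higher in the top 5% of every library but KO 1.

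**Figure D3:**
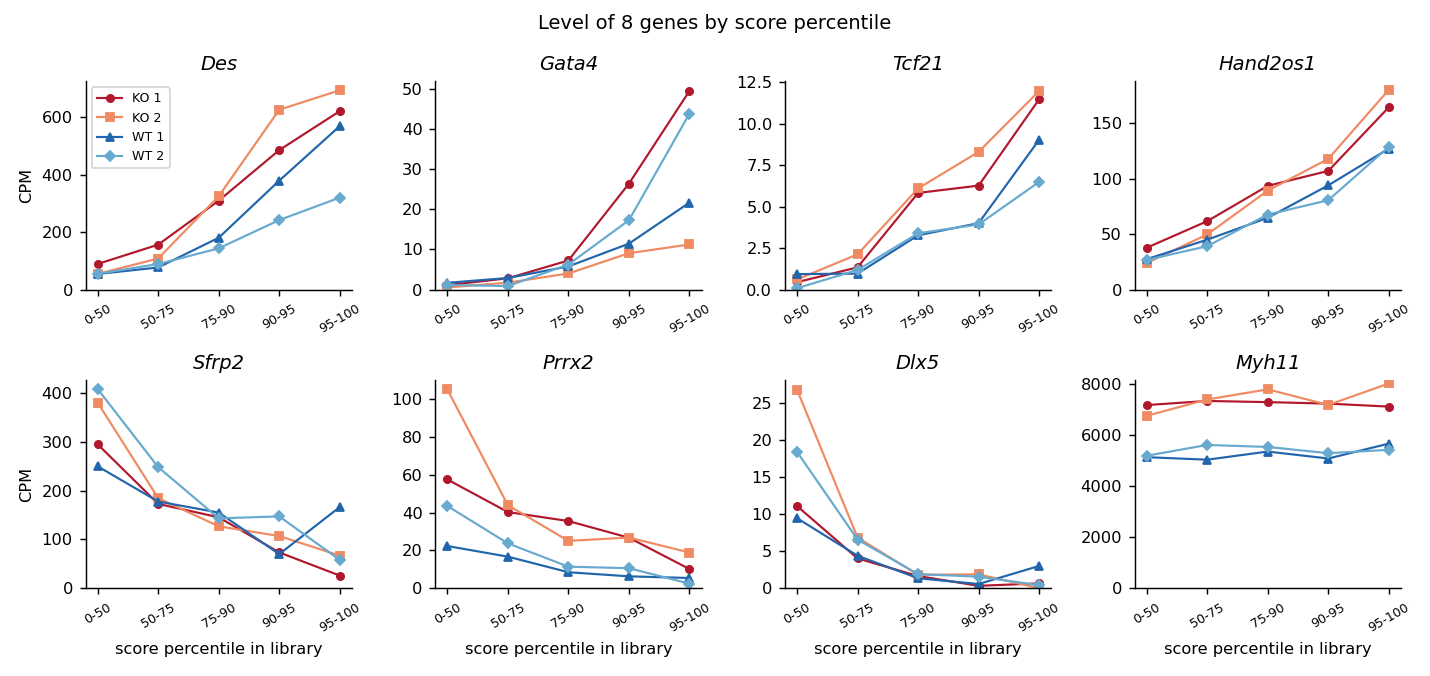
CPM of 8 genes is plotted, without scaling factors, over 5 bins of the score percentile within a library, 1 line per library, KO in red and orange and WT in blues. Des, Gata4, Tcf21 and Hand2os1 are highest in the top 5% of all 4 libraries, Sfrp2, Prrx2 and Dlx5 are highest in low-score cells, and Myh11 lies between 5025 and 8004 CPM throughout.

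Among genes of at least 20 CPM with the same direction in every library, the 14 largest rises ran from log2 fold changes of 2.71 for Tmem176b to 0.91 for Gpc3. Gpc3 ranged from 0.62 to 1.27 across the alternative settings and did not keep its call in all. Tmem176b, a membrane protein of the cation channel kind, stood at 75.3 and 74.02 CPM in KO members against 24.2 and 17.97 CPM in KO low-score cells, and 19.98 and 19.4 CPM in WT members against 1.79 and 1.5 CPM in WT low-score cells. Every member value lay above low-score cells of its own library, and the ratio was larger in WT. Dcn, which encodes the collagen-binding proteoglycan decorin, stood at 43.7 and 116 CPM in KO members against 16.4 and 34.2 CPM in KO low-score cells, and 62.9 and 19.4 CPM in WT members against 3.47 and 8.98 CPM in WT low-score cells. It was counted in 9.38% and 20.8% of KO members and in 19.8% and 6.65% of WT members, and a single cell held 24.2% of its UMIs in WT 1 members, so its level rested on few cells. Bmp3, a ligand of the TGF-beta superfamily, stood at 29.6 and 38.7 CPM in KO members against 10.2 and 10.6 CPM in KO low-score cells, and 108 and 66.01 CPM in WT members against 37.7 and 41.3 CPM in WT low-score cells, a log2 fold change of 1.40 ± 0.11 (SE, adjusted p = 5.04e-07). Ankrd1, a stretch-responsive cofactor of heart and vessel muscle, stood at 31.3 and 26.6 CPM in KO members against 12.9 and 16.1 CPM in KO low-score cells, and 50.7 and 53.8 CPM in WT members against 18.03 and 23.9 CPM in WT low-score cells, a log2 fold change of 1.16 ± 0.09 (SE, adjusted p = 5.38e-07). Both were higher in members of each library, and for Bmp3 the KO members overlapped WT low-score cells. With members chosen by Pln, Corin and Psd alone, Ankrd1 had a log2 fold change of -0.14. The other rises included Cebpd at 1.10, an acute-phase transcription factor, Chchd10 at 1.07, a mitochondrial protein, Maf at 0.97, Pth1r at 0.96, the parathyroid hormone receptor, and Maob at 0.91, a monoamine oxidase.

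The 14 largest falls ran from -3.81 for Adamtsl1 to -1.18 for Cd109. Adamtsl1, a secreted matrix protein, stood at 2.69 and 4.18 CPM in KO members against 22.1 and 77.7 CPM in KO low-score cells, and 2.39 and 1.65 CPM in WT members against 14.9 and 36.9 CPM in WT low-score cells. Mia, a secreted protein first known from melanoma and cartilage, stood at 13.8 and 12.1 CPM in KO members against 103 and 124 CPM in KO low-score cells, and 7.46 and 11.1 CPM in WT members against 39.3 and 54.1 CPM in WT low-score cells, a log2 fold change of -2.72 ± 0.08 (SE, adjusted p = 2.32e-11). Members lay below all low-score values for both genes. Sfrp2, a secreted Wnt modulator, stood at 50.6 and 88.6 CPM in KO members against 288 and 363 CPM in KO low-score cells, and 119 and 107 CPM in WT members against 247 and 401 CPM in WT low-score cells, a log2 fold change of -1.88 ± 0.10 (SE, adjusted p = 3.82e-09). Fabp4, a fatty acid carrier, stood at 55.6 and 41.8 CPM in KO members against 172 and 195 CPM in KO low-score cells, and 81.1 and 78.8 CPM in WT members against 137 and 147 CPM in WT low-score cells, and Npr1, the receptor of atrial natriuretic peptide, at 24.7 and 38.5 CPM in KO members against 98.7 and 97.5 CPM in KO low-score cells, and 64.7 and 54.5 CPM in WT members against 107 and 106 CPM in WT low-score cells. Each was lower in members of all 4 libraries, with log2 fold changes of -1.37 ± 0.07 (SE, adjusted p = 3.18e-09) for Fabp4 and -1.25 ± 0.08 (SE, adjusted p = 2.91e-08) for Npr1. Lgals3, the galectin of modulated smooth muscle and macrophages, was lower at -1.41, Aqp1, a water channel, at -1.41 and Sema3c, a guidance signal of the outflow tract, at -1.26.

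**Figure D4:**
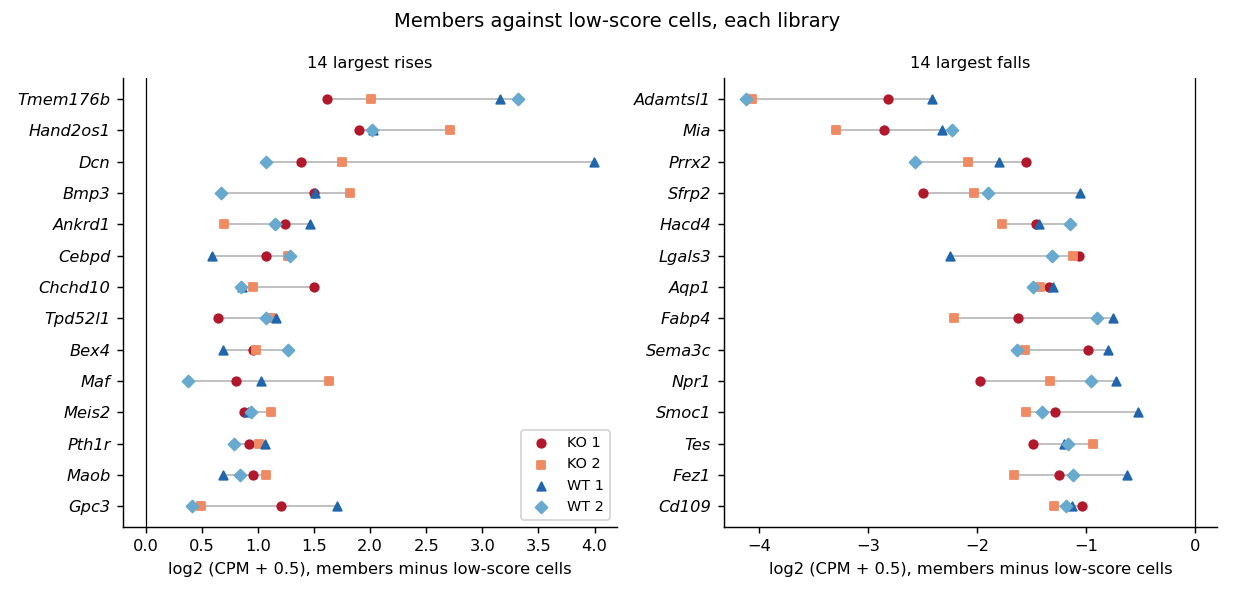
The x axis gives log2(CPM + 0.5) in members minus that in low-score cells for the 14 largest rises (left) and the 14 largest falls (right), with 1 point per library, KO in red and orange and WT in blues. The 4 points of each gene lie on 1 side of 0, and those of Tmem176b are higher in both WT libraries than in both KO libraries.

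Some contractile genes were higher by small steps, and most did not pass. Of 38 tested, 14 were higher (36.8%) and 1, Itga8, was lower, with a median log2 fold change of 0.09. The log2 fold change was 0.33 ± 0.03 (SE, adjusted p = 8.35e-06) for Csrp2 and 0.34 ± 0.04 (SE, adjusted p = 1.47e-05) for Hspb6, a small heat shock protein. Synm, which encodes the filament partner of desmin, was higher at 0.54, Fhl2 at 0.59, Tagln at 0.25 and Myh11 at 0.14. Acta2, the smooth muscle actin, had a log2 fold change of 0.07 ± 0.04 (SE, adjusted p = 0.236) and Cnn1, calponin, of 0.03 ± 0.03 (SE, adjusted p = 0.638), and neither passed. Myh11 lost its call without WT 1 and without WT 2.

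Few other sarcomere genes passed the test. Of 18 sarcomere and troponin genes tested beside it, 2 were higher, Ankrd1 and Myh6, and 2 were lower, Tnnt1 and Mybpc2, Tnnt1 losing its call without KO 2 and without WT 2. Myh6, a heart myosin gene, rested on few cells, with 103 UMIs in 11 KO 1 members and 50.5% of them in 1 cell, and its call was lost without KO 1 and without WT 2. Of 24 calcium handling genes tested beside Pln, 4 were higher (16.7%) and 2 lower (8.33%), against 6.55% and 5.93% of all genes tested. Slc8a1, the sodium-calcium exchanger, stood at 129.9 and 127 CPM in KO members against 83.4 and 84.5 CPM in KO low-score cells, and 88.9 and 96.5 CPM in WT members against 61.96 and 57.7 CPM in WT low-score cells, a log2 fold change of 0.63 ± 0.05 (SE, adjusted p = 3.67e-07). Cacnb2, a calcium channel subunit, was higher at 0.41 and Stim1, the store sensor, at 0.30. Across the alternative settings Cacnb2 ranged from 0.32 to 0.46 and Stim1 from 0.23 to 0.51, and neither kept its call in all. Of 15 natriuretic peptide and cGMP genes tested beside Corin, 3 were higher, the guanylate cyclase subunits Gucy1a1 at 0.42 and Gucy1b1 at 0.38 and the kinase Prkg1 at 0.34, and 2 were lower, Npr1 and Pde1a.

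The channel and receptor genes that passed were mainly lower in members. Of 23 channel genes tested, 1 was higher and 6 lower (26.1%), among them Abcc9 at -1.03 and Kcnj8 at -0.65, the subunits of the vascular KATP channel. Across the alternative settings Abcc9 ranged from -1.34 to -0.62 and Kcnj8 from -0.84 to -0.02, and Kcnj8 did not keep its call in all. Both genes are also pericyte markers, and 6 of the 7 pericyte markers tested were lower in members. The part of pericyte RNA in these values was not tested. Of 16 receptor genes tested, 1 was higher, Ednrb, and 5 were lower, among them Htr2a, a serotonin receptor, at -0.85 and Ednra, the endothelin receptor of smooth muscle, at -0.70. Ednra lost its call without KO 2 and without WT 2, and Ednrb without WT 2. Htr2a ranged from -1.20 to -0.33 across the alternative settings and did not keep its call in all.

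The matrix lists moved in both directions. Of 20 elastic fibre genes tested, 11 were lower (55.0%), 2 were higher, Emilin1 and Loxl2, and the others did not pass, with a median log2 fold change of -0.32. Eln, the gene of elastin, stood at 215 and 230.0 CPM in KO members against 395 and 263 CPM in KO low-score cells, and 2044 and 2056 CPM in WT members against 2947 and 3061 CPM in WT low-score cells, a log2 fold change of -0.55 ± 0.07 (SE, adjusted p = 5.46e-05). It was lower in members than in low-score cells of each library, and every KO value lay below every WT value. Mfap5, a microfibril protein, was lower at -1.18, and Lox and Loxl1, which cross-link elastin, at -0.45 for Lox and -0.41 for Loxl1, while Emilin1 was higher at 0.55. Of 14 collagens tested, 7 were lower, among them Col6a2 at -0.49 and Col1a2 at -0.37, and 4 were higher, Col8a1 at 2.55, Col16a1 at 1.05, Col14a1 at 0.76 and Col6a3 at 0.28. Col6a3 differed between genotypes, with 0.51 ± 0.06 (SE, adjusted p = 2.46e-05) in KO and 0.05 ± 0.06 (SE, adjusted p = 0.805) in WT. The difference itself was called, at 0.46 ± 0.08 (SE, adjusted p = 0.0407). Of 17 basement membrane genes tested, 3 were higher, among them Nid1 at 1.07, and 6 lower, among them Agrn at -0.69. Of 27 matrix proteases and inhibitors tested, 3 were higher and 10 lower, among them Htra1 at -0.56 and Serpine2 at -0.48. Of 23 proteoglycan and matricellular genes tested, 6 were higher, among them Sparcl1 at 0.57, and 4 were lower, among them Tnxb at -0.63. The summed fibroblast markers were lower in members too, with 3 of 10 tested higher and 5 lower, Lum not counted, and their part in the matrix values was not tested.

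Signalling genes moved in both directions, where 6.55% of all genes tested were higher and 5.93% lower. Of 13 BMP and ID genes tested, 1 was higher (7.69%), Smad6 at 0.33, a share close to that of all genes. Lower were 3 (23.1%), among them the BMP antagonists Nog and Grem1. Smad6 lost its call without KO 1 and without WT 2, and Nog without KO 2 and without WT 2. No Grem1 UMI was counted in the 1305 members, against 259 in low-score cells, so Grem1 was at least 18.2-fold lower at a floor of 3 counts over all members. This bound pools the UMIs of all 4 libraries, and Grem1 did not keep its call in all alternative settings. Of 27 Notch and Wnt genes tested, 6 were higher and 6 lower. Sfrp1, a Wnt modulator related to Sfrp2, stood at 33.8 and 24.1 CPM in KO members against 12.3 and 8.83 CPM in KO low-score cells, and 25.3 and 34.03 CPM in WT members against 6.94 and 5.24 CPM in WT low-score cells, a log2 fold change of 1.89 ± 0.11 (SE, adjusted p = 1.85e-08), and so was higher in the cells where Sfrp2 was lower. Of 17 TGF-beta target genes tested, 4 were higher and 4 lower, and of 26 TGF-beta ligands, receptors and SMADs, 4 were higher and 4 lower, the receptor Tgfbr2 being higher at 0.39. Tgfbr2 ranged from 0.23 to 0.47 across the alternative settings and did not keep its call in all. Of 37 integrin and focal adhesion genes tested, 6 were higher and 5 lower.

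Some genes of energy metabolism were higher in members by small steps. Of 36 oxidative phosphorylation genes tested, 12 were higher (33.3%) and the others did not pass, with a median log2 fold change of 0.09. Cox6c was higher at 0.31, Cox8a at 0.21 and Uqcrh at 0.19. Across the alternative settings Cox8a ranged from 0.08 to 0.26 and Uqcrh from 0.09 to 0.23, and neither kept its call in all. With members chosen by Pln, Corin and Psd alone, the median of the list was -0.00. Of 30 glycolysis and fatty acid genes tested, 7 were higher, among them Lpl, the lipoprotein lipase, at 0.91, and 2 were lower, one of them Fabp4. Of 14 genes of modulated smooth muscle tested, 7 were lower, among them Lgals3, Fn1 at -0.73 and S100a4 at -0.70, and 5 were higher, among them Cd44 at 0.70. Inflammatory and complement genes were higher in 6 of 13 tested, among them Cxcl12 at 0.74, and lower in 1. Interferon-stimulated genes were higher in 1 and lower in 6 of 25 tested. Of 32 dissociation stress genes, 8 were higher, among them Junb at 0.47, and 5 lower, among them Fosb at -1.43. Junb ranged from 0.06 to 0.49 across the alternative settings and did not keep its call in all.

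Within KO alone, members differed from low-score cells in 1098 genes (8.52%), 568 higher (4.41%) and 530 lower (4.11%), and within WT alone in 708 genes (5.49%), 379 higher (2.94%) and 329 lower (2.55%). Without KO 2 the KO count was 686, and without WT 2 the WT count was 284. The log2 fold change of Gata4 was 4.92 ± 0.28 (SE, adjusted p = 2.51e-08) in KO and 4.16 ± 0.28 (SE, adjusted p = 3.01e-07) in WT. That of Prrx2 was -1.86 ± 0.12 (SE, adjusted p = 5.50e-08) in KO and -2.39 ± 0.19 (SE, adjusted p = 1.57e-06) in WT. The difference between KO and WT in the fold change itself was called for 22 genes (0.171%), 4 of them positive (0.031%) and 18 negative (0.14%), while 908 genes had an unadjusted p under 0.05. The count was 4 with DESeq2, 1 with each cell thinned to 3000 UMIs, and 104, 67, 72 and 60 without KO 1, KO 2, WT 1 and WT 2. Gata4 was not among the 22, with a difference of 0.76 ± 0.44 (SE, adjusted p = 0.795).

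The 22 genes included the adhesion gene Vcam1, which differed in opposite directions in the genotypes, and fibronectin, which fell further in KO members. Vcam1, an adhesion molecule, stood at 23.4 and 12.1 CPM in KO members against 33.3 and 19.9 CPM in KO low-score cells, and 22.1 and 38.2 CPM in WT members against 12.1 and 14.2 CPM in WT low-score cells. Members were thus below their low-score cells in both KO libraries and above them in both WT libraries, and the difference of the log2 fold changes was -1.80 ± 0.19 (SE, adjusted p = 0.000741). Vcam1 did not follow the score from bin to bin, however. Without scaling factors, its 5 bins stood at 34.1, 13.6, 27.7, 16.8 and 28.9 CPM in KO 1 and at 12.3, 44.98, 27.5, 29.8 and 13.3 CPM in WT 1, where the highest bin lay outside the members and the top 5% was close to low-score cells. Elmo1, a regulator of Rac, stood at 12.1 and 14.6 CPM in KO members against 12.05 and 14.1 CPM in KO low-score cells, and 8.05 and 10.5 CPM in WT members against 2.31 and 1.83 CPM in WT low-score cells, a difference of -2.18 ± 0.28 (SE, adjusted p = 0.00409). Sphkap, an anchor of protein kinase A, stood at 8.4 and 14.2 CPM in KO members against 10.9 and 18.7 CPM in KO low-score cells, and 61.4 and 73.8 CPM in WT members against 38.9 and 40.05 CPM in WT low-score cells, a difference of -1.17 ± 0.16 (SE, adjusted p = 0.00409). The classes were close in KO for Elmo1, while WT members lay above their low-score cells for both genes. Scx, a tendon transcription factor, stood at 14.3 and 25.4 CPM in KO members against 31.6 and 48.9 CPM in KO low-score cells, and 77.8 and 71.4 CPM in WT members against 83.6 and 79.2 CPM in WT low-score cells, and Fn1, fibronectin, at 164 and 180.5 CPM in KO members against 320.4 and 378 CPM in KO low-score cells, and 396 and 423 CPM in WT members against 551 and 563 CPM in WT low-score cells. Fn1 was lower in members of both genotypes, by more in KO. Scx had a log2 fold change of -1.03 ± 0.09 (SE, adjusted p = 3.42e-06) in KO and -0.13 ± 0.07 (SE, adjusted p = 0.432) in WT, and the differences were -0.90 ± 0.12 (SE, adjusted p = 0.00409) for Scx and -0.57 ± 0.08 (SE, adjusted p = 0.00409) for Fn1. Cytl1, a secreted protein of cartilage, had the largest difference, -8.30 ± 0.73 (SE, adjusted p = 0.000102), but 8 cells held its 97 UMIs in WT 1 members and 1 of them held 61.9%. With members chosen by Pln, Corin and Psd alone, the difference was 0.56 for Vcam1 and 0.27 for Fn1, the opposite direction.

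**Figure D5:**
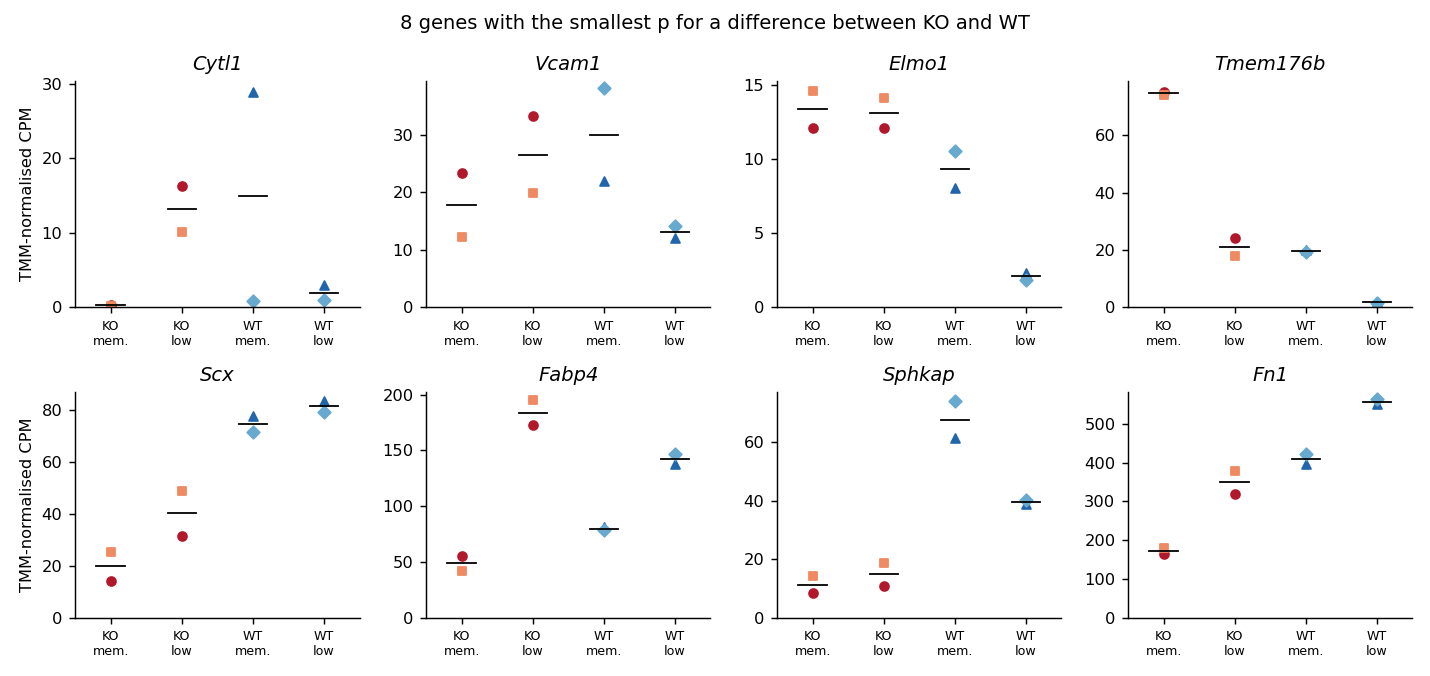
CPM with scaling factors is plotted for the 8 genes of smallest p for a difference between KO and WT, in KO members, KO low-score cells, WT members and WT low-score cells, with 1 point per library and a line at the mean of 2 libraries. Vcam1 and Sphkap are lower in members than in low-score cells in KO and higher in WT, and the WT 1 member point of Cytl1 stands far above that of WT 2.

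Between genotypes, KO members differed from WT members in 1221 of 11384 genes (10.7%), of which 516 were higher (4.53%) and 705 lower (6.19%) in KO. For low-score cells the count was 2147 of 13458 genes (16%), 922 higher (6.85%) and 1225 lower (9.1%) in KO, and it was 1250 without WT 1 and 1335 without WT 2. Of the 1221 genes, 956 were also called in low-score cells with the same sign and 1 with the opposite sign. The score cut was higher in the KO libraries, and with 1 common cut for all 4 libraries the count among members was 1417. Both deleted receptor genes were still counted. Tgfbr1 stood at 71.6 and 66.99 CPM in KO members against 80.5 and 82.5 CPM in WT members, a log2 fold change of -0.24 ± 0.11 (SE, adjusted p = 0.181), and Tgfbr2 at 59.99 and 64.7 CPM in KO members against 57.6 and 50.5 CPM in WT members, a log2 fold change of 0.21 ± 0.12 (SE, adjusted p = 0.332). The library preparation tags the 3′ end of a transcript, and the sources used here do not say whether the deleted part reaches it, so these values do not check the deletion.

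Among the genes lower in KO members were several of elastic and microfibrillar matrix. Eln stood at 215 and 230.0 CPM in KO members against 2044 and 2056 CPM in WT members, Mfap4, a microfibril-associated protein, at 47.1 and 75.2 CPM in KO members against 864 and 847 CPM in WT members, and Col15a1, a basement membrane collagen, at 3.7 and 2.09 CPM in KO members against 193 and 236 CPM in WT members. Aspn, the proteoglycan asporin, stood at 2.52 and 5.12 CPM in KO members against 59.6 and 50.1 CPM in WT members, and Pmepa1, a TGF-beta target that restrains SMAD signalling, at 129.9 and 149 CPM in KO members against 1091 and 1132 CPM in WT members. No KO value overlapped a WT value for any of these genes, with log2 fold changes of -6.19 ± 0.19 (SE, adjusted p = 6.79e-11) for Col15a1, -3.82 ± 0.15 (SE, adjusted p = 1.20e-09) for Mfap4, -3.21 ± 0.08 (SE, adjusted p = 1.17e-11) for Eln, -3.86 ± 0.23 (SE, adjusted p = 9.54e-08) for Aspn and -3.00 ± 0.09 (SE, adjusted p = 6.79e-11) for Pmepa1. Col15a1 (chr4:47208161-47313167, + strand) lies near Tgfbr1 (chr4:47353222-47414931, + strand), which is floxed in KO mice only. Whether the floxed allele itself changes the level of Col15a1 was not tested. Between KO and WT members, 4.53% of all genes tested were higher and 6.19% lower in KO. Of 17 TGF-beta target genes tested, 11 were lower in KO members, with a median log2 fold change of -1.16. Of 19 elastic fibre genes tested, 10 were lower and 1 higher in KO members and the others did not pass, and of 22 proteoglycan and matricellular genes, 13 were lower and 1 higher. Nupr1, a stress-induced nuclear protein, stood at 63.2 and 76.9 CPM in KO members against 783 and 847 CPM in WT members and Pcsk5, a proprotein convertase, at 5.38 and 6.07 CPM in KO members against 47.1 and 60.2 CPM in WT members, and both were lower in KO.

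Higher in KO members were Itih4, a serum protease inhibitor chain, at 1391 and 977 CPM in KO members against 149 and 189 CPM in WT members, and Plvap, a diaphragm protein of endothelial fenestrae, at 52.4 and 40.05 CPM in KO members against 10.4 and 12.6 CPM in WT members. Mlf1 stood at 35.1 and 30.6 CPM in KO members against 7.16 and 8.46 CPM in WT members and Clec2d, a ligand of natural killer cell receptors, at 36.97 and 53.7 CPM in KO members against 13.1 and 10.1 CPM in WT members. The log2 fold change was 2.79 ± 0.15 (SE, adjusted p = 2.28e-08) for Itih4, 1.98 ± 0.19 (SE, adjusted p = 8.35e-06) for Plvap, 2.05 ± 0.19 (SE, adjusted p = 6.36e-06) for Mlf1 and 1.98 ± 0.21 (SE, adjusted p = 3.08e-05) for Clec2d. Actc1, the heart actin, had 611 UMIs in 31 KO 1 members and 76 UMIs in 9 KO 2 members, against 4 UMIs in WT 1 and 1 UMI in WT 2 members. In KO 1, 1 cell held 18.8% of them. Actc1 stood at 103 and 14.4 CPM in KO members against 22.7 and 32.9 CPM in KO low-score cells. WT low-score cells had 0.231 and 1.21 CPM. Actc1 was thus higher in KO among low-score cells too, and in KO 2 those lay above the members. Contractile genes were higher in KO members for 15 of 37 tested and lower for 4, with a median of 0.21. Of 33 transcription factors tested between genotypes, 5 were higher and 2 lower in KO members. Of all genes tested in this comparison, 4.53% were higher and 6.19% lower in KO members. The 2 lower factors are a share close to that of all genes. Gata4 had a KO over WT log2 fold change of 0.01 ± 0.41 (SE, adjusted p = 0.993) in members, Meis2 of 0.40 ± 0.09 (SE, adjusted p = 0.0138) and Prrx2 of 1.69 ± 0.22 (SE, adjusted p = 0.000154).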

How the data were processed

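The deposited files hold raw UMI counts for every gene and barcode. They came from Cell Ranger, version 5.0.1 in the file headers, and the submitters' processing notes list mm10 and Seurat 4.0. Libraries were 10x 3′ gene expression libraries, per the labels' protocols. A barcode counted as a cell from 3000 UMIs and 500 genes, if no more than 10% of its UMIs were mitochondrial, leaving 4162, 3414, 2316 and 3157 cells in KO 1, KO 2, WT 1 and WT 2, where the labels state 4031, 3246, 2151 and 3000 after the authors' filter. No doublets were removed, because Scrublet called 0.024%, 0.117%, 0.993% and 0.222% of cells in these libraries, which in 3 of the 4 is too few to count as working. The members, the gene lists and the comparisons were chosen with earlier results of these data known.

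Counts were summed per library and class, giving 3406367 to 6078890 UMIs a library for members and 17107801 to 28975504 for low-score cells. They were tested with edgeR 4.0.16 (R 4.3.3, TMM, quasi-likelihood, adjusted p below 0.05), with DESeq2 1.42.0 as an alternative. The 4 score genes were left out of each fit after library sizes had been set, and no p is given for Des and Lum. Members and low-score cells were compared with the library as a block, and genotypes without one. Named genes were the score genes, Des, Lum, the receptor and reporter genes, the 14 largest rises and falls of members against low-score cells, the 8 largest of KO against WT (both at a mean of 20 CPM or more, with the same direction or no overlap), the 8 of smallest p for the difference, and the 3 of smallest p in each list. Other transcription factors and list members were named after their values had been seen. Cells were processed with Python 3.11.15 and scanpy 1.11.5, and the fits were tested on simulated data. Alternatives were each library left out, other cuts, filters and normalizations, thinning to 3000 UMIs, scores without 1 gene, and, chosen after seeing the data, a common score cut and a crossed replicate block. Same-numbered libraries were not shown to be paired. Shares of cells with a UMI carry counting error only.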

Additional observations from a re-analysis of the deposited data

Results flagged for a closer look

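The fold change of members over low-score cells differed between KO and WT, by the test of the difference itself, for 8 named genes. The KO minus WT difference of the log2 fold changes was -8.30 for Cytl1, -1.80 for Vcam1, -2.18 for Elmo1, -1.76 for Tmem176b, -0.90 for Scx, -1.07 for Fabp4, -1.17 for Sphkap and -0.57 for Fn1. Vcam1 was lower in members of both KO libraries, with a log2 fold change of -0.59 ± 0.13 (SE, adjusted p = 0.0106), and higher in members of both WT libraries, with 1.21 ± 0.14 (SE, adjusted p = 6.98e-05). Tmem176b was higher in members of both genotypes, with 1.83 ± 0.10 (SE, adjusted p = 2.51e-08) in KO and 3.59 ± 0.21 (SE, adjusted p = 1.53e-07) in WT. Fabp4 was lower in both, with -1.91 ± 0.10 (SE, adjusted p = 2.26e-08) in KO and -0.84 ± 0.10 (SE, adjusted p = 8.33e-05) in WT. Cytl1 rested on few cells, since the WT 1 members held 97 UMIs in 8 cells and KO 1 low-score cells 482 UMIs in 22 cells. Elmo1 was spread over more cells, with UMIs in 59 and 62 KO members and in 21 and 36 WT members. All 8 lost their call without the library block, with adjusted p up to 0.9999 for Vcam1, Scx and Sphkap. After thinning to 3000 UMIs, Cytl1 alone of the 8 kept its call. With the score without Tnnt2, Cytl1, Tmem176b and Fabp4 kept theirs, Elmo1, Scx and Sphkap lost theirs, and Vcam1 and Fn1 changed direction.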

How the results depend on the processing

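Of 115 named results past the threshold, 81 kept their direction and call under every alternative and 105 without each library in turn. The reversals were Ankrd1 (-0.14) in members against low-score cells and the KO minus WT differences of Vcam1 (0.56) and Fn1 (0.27), all with the score taken without Tnnt2, and Ednra (0.0315) after thinning to 3000 UMIs. Genes called in members against low-score cells numbered 1608, and 653 with DESeq2, 915 at 20 CPM or more, 838 with no replicate block by library, 487 thinned and 1003 to 1490 without 1 library. In KO they numbered 1098, and 343 with DESeq2, 583 at 20 CPM or more, 410 with no block, 323 thinned, 722 for the top 5% and 686 to 1340 without 1 library. In WT they numbered 708, and 210 with DESeq2, 404 at 20 CPM or more, 171 with no block, 130 thinned and 284 to 1030 without 1 library. The 22 genes that differed between KO and WT numbered 4 with DESeq2, 14 at 20 CPM or more, 129 with no expression filter, 13 against the other 90%, 13 at a common score cut, 14 with cells matched in UMI bins, 9 with the score without Pln, 35 without Tnnt2 (5 of the 22 among them), 1 thinned, 9 for the top 20%, 5 for the top 5%, 60 to 104 without 1 library and 0 by edgeR with no block, where 484 had an unadjusted p under 0.05. The share of positive differences was 18.2%, and 60.0% with the score without Tnnt2. Between genotypes, members had 1221 calls, and 590 with DESeq2, 433 thinned, 553 for the top 5% and 835 to 1203 without 1 library, and low-score cells had 2147, and 1217 at 20 CPM or more, 1407 thinned and 1250 to 1852 without 1 library. With the replicate number as a block, members had 1179 calls and low-score cells 2835. Deviations of same-numbered libraries correlated at -0.136 in members and 0.115 in low-score cells, and a crossed replicate block gave 1493 calls in members. Fits without 1 library leave a genotype with 1 library, assumed to vary like the others. Genes under about 5 CPM rest on few UMIs per library.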

Other observations

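Ribosomal protein genes, counted after their values had been seen, were higher in members for 74 of 83 tested, and the others did not pass. Their median log2 fold change was 0.16, or 1.12-fold, where 6.55% of all genes tested were higher. Irx2, an Iroquois homeobox gene that was on no list and was chosen after its values were seen, had a log2 fold change of 3.29 ± 0.37 (SE, adjusted p = 1.43e-05) at few UMIs.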
